A study of Mus musculus with 10 samples.

Results

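The mouse genes for replication-dependent histones are 67 of the 21938 protein-coding genes outside the mitochondrial genome in the GENCODE annotation of GRCm38. They were chosen by symbol, as every protein-coding gene named Hist1h, Hist2h, Hist3h or Hist4h, a rule that uses no measured value. By class they are 6 genes for the linker histone H1, 18 for H2A, 18 for H2B, 12 for H3 and 13 for H4. H3K4me3, a mark of promoters in use, was read at them by CUT&Tag, in which an antibody directs the Tn5 transposase to a histone mark so that the DNA there is cut and tagged.

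Replication-dependent histone genes supply the histones that package newly copied DNA, and cells transcribe them in S phase. As a rule they have no introns, and their mRNAs end in a stem loop in place of a poly(A) tail. They lie in clusters where neighbours are often transcribed away from each other from a shared promoter. In the nucleus the clusters gather in histone locus bodies around NPAT, a coactivator of their transcription.

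The cells were nEnd, naive extra-embryonic endoderm, a culture model of the PrE (primitive endoderm) of the mouse blastocyst. All came from the OCT4-mCherry reporter line, were grown on feeder cells in a medium with LIF, CHIR99021 and Activin A, and had no further treatment. FACS split them by the OCT4-mCherry reporter and by PDGFRA on the cell surface into Oct4+ nEnd (4 libraries), DP nEnd, positive for both (3 libraries), and Pdgfra+ nEnd (3 libraries). The reporter and 1 surface protein define the populations, and all 3 share the line, the medium and the feeders, so differences can only be read between sorted fractions of this culture. The study's methods describe biological replicates as its rule, and the legend of its H3K4me3 tracks near Oct4 gives 3 of them. Neither these nor the labels tie single libraries to separate cultures or account for the fourth Oct4+ nEnd library. The p-values here therefore measure the spread between these libraries, which may be partly technical.

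The data are lists of peaks with 3477 to 10545 peaks per library, and 3477 of them, the lowest number, belong to Oct4+ nEnd replicate 3. The read depth behind them is unknown. The median over a library's peaks of their highest coverage lay between 22 and 59 in Oct4+ nEnd, between 107 and 144 in DP nEnd and between 67 and 143 in Pdgfra+ nEnd. Of 6 Epi and pluripotency markers, all 6 were marked in each Oct4+ nEnd library, 5 or 6 in DP nEnd and 0 to 2 in Pdgfra+ nEnd. Of 7 PrE markers, 0 to 5 were marked in Oct4+ nEnd and all 7 in each library of the other two. Of 15 fibroblast markers, which feeder cells would carry, 0 to 2 were marked per library, and Col1a1, Col1a2, Col3a1, Thy1, Dcn and Lum were at 0 in all 10.

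The genes lie in 5 groups, taken as runs with gaps under 200 kb. The lower Hist1 block on chromosome 13, from 21715763 to 22043676, holds 23 genes, and the upper Hist1 block, from 23531050 to 23934851, holds 31. The Hist2 cluster on chromosome 3, from 96219865 to 96270132, holds 10. The Hist3 cluster on chromosome 11, from 58948920 to 58956830, holds 2, and Hist4h4, a gene for H4, stands alone on chromosome 6 from 136801553 to 136804415 on the minus strand.

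Promoter sequence is given for genes at both ends of the range of marking. The first is the stretch between the start sites of Hist2h2ac (H2A, minus strand) and Hist2h2be (H2B, plus strand), chr3:96220881-96221118 of GRCm38 on the plus strand, the head-to-head pair of H2A and H2B with the highest mean peak percentile. Capitals mark each match, on either strand, of TATAAA, of the box CCAAT, of the octamer ATTTGCAT or of its shorter core ATTTGC, and a box on the other strand reads ATTGG.
Hist2h2ac/Hist2h2be: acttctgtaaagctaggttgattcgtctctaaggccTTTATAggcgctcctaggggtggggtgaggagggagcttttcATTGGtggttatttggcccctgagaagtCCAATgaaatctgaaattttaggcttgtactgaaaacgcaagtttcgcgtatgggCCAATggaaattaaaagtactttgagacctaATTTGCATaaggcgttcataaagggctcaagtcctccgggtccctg
The 238 bases hold 1 TATA element, 3 CCAAT boxes and 1 ATTTGCAT octamer. The next is the isolated gene Hist4h4, with the 200 bases before its start at chr6:136804416-136804615 on the minus strand.
Hist4h4: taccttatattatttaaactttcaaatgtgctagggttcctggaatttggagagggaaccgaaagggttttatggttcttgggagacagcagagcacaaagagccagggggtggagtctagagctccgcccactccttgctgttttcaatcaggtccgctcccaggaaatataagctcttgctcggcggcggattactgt
None of the 4 words occurs in these 200 bases. The following 4 genes were marked in no library, and these 4 of the 11 such genes were picked after their values were seen. Hist1h2ba (chr13:23934157-23934356, minus strand) and Hist1h2aa (chr13:23934262-23934461, plus strand) are a head-to-head pair known for expression in the testis.
Hist1h2ba: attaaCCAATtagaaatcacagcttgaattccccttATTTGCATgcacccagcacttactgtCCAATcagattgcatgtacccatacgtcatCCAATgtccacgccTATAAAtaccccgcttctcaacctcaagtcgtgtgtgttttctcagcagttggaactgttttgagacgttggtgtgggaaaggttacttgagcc
Hist1h2aa: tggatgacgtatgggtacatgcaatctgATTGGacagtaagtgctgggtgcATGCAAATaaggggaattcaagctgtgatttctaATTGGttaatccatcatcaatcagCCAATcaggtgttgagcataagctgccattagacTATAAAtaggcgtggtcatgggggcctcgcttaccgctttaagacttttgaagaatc
Each of these stretches holds 1 TATA element, 3 CCAAT boxes and 1 octamer, although no peak was called over either promoter. The stretches overlap, so the octamer and some of the boxes are the same bases read on opposite strands. Hist1h2ao (chr13:21810265-21810464, plus strand) and Hist1h2ap (chr13:21833508-21833707, minus strand) are genes for H2A in a repeated part of the lower Hist1 block.
Hist1h2ao: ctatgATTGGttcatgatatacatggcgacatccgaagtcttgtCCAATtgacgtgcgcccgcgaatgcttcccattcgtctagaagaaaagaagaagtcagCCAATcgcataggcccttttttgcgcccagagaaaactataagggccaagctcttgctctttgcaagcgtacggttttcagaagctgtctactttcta
Hist1h2ap: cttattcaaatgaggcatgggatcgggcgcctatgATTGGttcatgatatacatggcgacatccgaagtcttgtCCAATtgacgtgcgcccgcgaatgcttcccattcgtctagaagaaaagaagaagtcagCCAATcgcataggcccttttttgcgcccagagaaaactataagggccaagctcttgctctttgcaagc
Each holds 3 CCAAT boxes, and the pair share an unbroken run of 170 identical bases. Either stretch of 200 bases occurs at 2 places in the genome, itself included, while each of the other 4 stretches shown occurs once.

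RefSeq promoter windows on GRCm38.p6, from 250 bases before to 50 after the start, were matched for 61 of the 67 genes. Hist1h2ap, Hist1h3f, Hist1h2bc, Hist1h3a, Hist2h2be and Hist2h4 had no entry. TATAAA, the core of a TATA element, was found on either strand in 35 of the 61 (57.4%), against 14.2% of all 27025 promoters in the table. CCAAT, a common proximal promoter element, was found in 52 (85.2%), against 37.9% of all promoters. It was in every matched window of H1, H2A, H2B and H3 and in 3 of 12 for H4. The octamer ATTTGCAT was in 13 (21.3%), against 1.75% of all promoters, and its core ATTTGC, which every octamer also holds, in 22 (36.1%), against 10.4%. The octamers lay in 7 of 17 windows of H2A genes and 6 of 16 of H2B genes and in 0 for H1, H3 and H4. Windows of head-to-head genes overlap, so the same match can count for both. Of the 10 matched genes marked in no library 9 held CCAAT and 2 the octamer, and of the 15 marked in 8 or 9 libraries 13 and 2 did.

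A gene was called marked when a peak overlapped its promoter, from 1000 bp before to 100 bp after an annotated start. In Oct4+ nEnd 52, 40, 17 and 34 of the 67 histone genes were marked in replicates 1 to 4. In DP nEnd 35, 36 and 21 were marked in replicates 1 to 3, and in Pdgfra+ nEnd 54, 2 and 19. The populations overlapped, and the lowest value, Pdgfra+ nEnd replicate 2, came from a library with 6510 peaks. Its 2 marked histone genes were Hist3h2a and Hist4h4.

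As a share of the 67 genes, 53.4% ± 21.7 were marked in Oct4+ nEnd (SD, n = 4), 45.8% ± 12.5 in DP nEnd (SD, n = 3) and 37.3% ± 39.6 in Pdgfra+ nEnd (SD, n = 3). Of all protein-coding genes 18.3% to 50.8% were marked per library. The histone genes were above that share in all 4 Oct4+ nEnd libraries, in DP nEnd replicates 1 and 2 and in Pdgfra+ nEnd replicate 1. They were below it in DP nEnd replicate 3, with 31.3% against 39.1%, and in Pdgfra+ nEnd replicates 2 and 3, with 2.99% against 33.5% and 28.4% against 39.7%. The differences between means were 7.59 points for Oct4+ nEnd over DP nEnd and 16.04 points over Pdgfra+ nEnd, both smaller than the SD between libraries of 17.7 and 31.9 points. Without Oct4+ nEnd replicate 1 the first was -0.498 points, and without Pdgfra+ nEnd replicate 2 the second was -1.12 points, so neither direction held without 1 library.

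When each library was cut to its 3477 peaks of highest total signal, the number in the smallest list, Oct4+ nEnd no longer overlapped the other two populations, which still overlapped each other. Oct4+ nEnd replicates 1 to 4 then had 25, 9, 17 and 18 marked histone genes. DP nEnd had 4 in each replicate, and Pdgfra+ nEnd had 5, 0 and 0. The share of all protein-coding genes that were marked lay between 18.3% and 20.3% in each of the 10 shortened lists, while that of histone genes lay between 13.4% and 37.3% in Oct4+ nEnd, at 5.97% in DP nEnd and between 0% and 7.46% in Pdgfra+ nEnd. The cut was made by total signal alone, and none was made by highest coverage. Histone genes per peak were then 2.25 to 3.125 in Oct4+ nEnd, 2 in each DP nEnd library and 1.67 in Pdgfra+ nEnd replicate 1. The separation in gene counts therefore rests on fewer peaks than genes. These are descriptions over genes that share peaks, so no p is given.

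**Figure D1:**
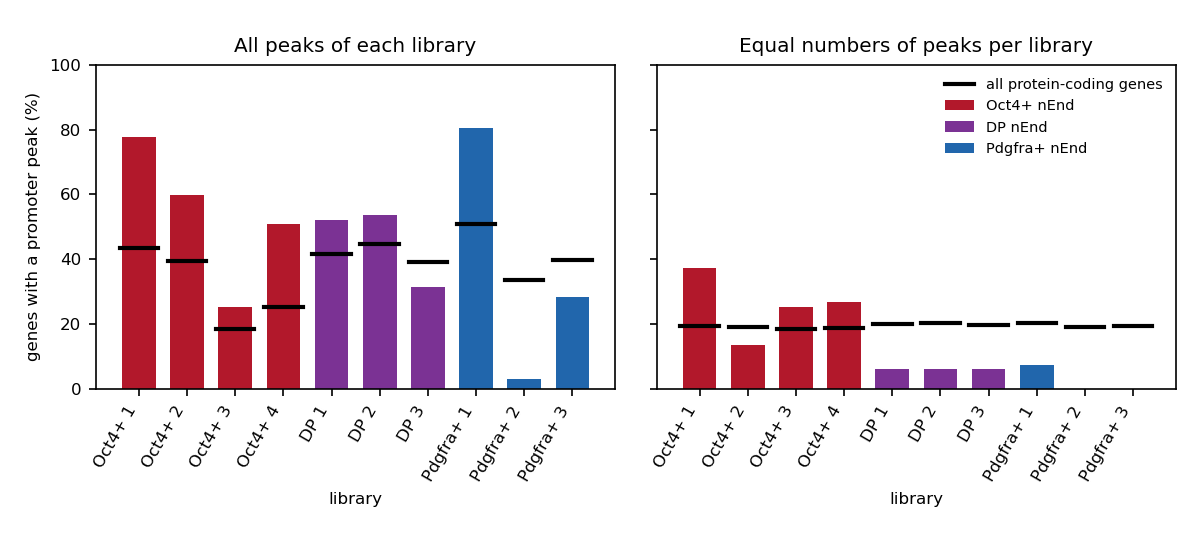
Percent of the 67 histone genes with an H3K4me3 peak over the promoter (bars, y axis) in each library (x axis). The share of all protein-coding genes is a black line. All peaks are on the left, and the 3477 peaks of highest total signal of each library are on the right. On the left the populations overlap and Pdgfra+ nEnd spans 2.99% to 80.6%, and on the right all 4 Oct4+ nEnd bars stand above the DP nEnd and Pdgfra+ nEnd bars.

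In bulk libraries such as these, fewer cells with the mark and less of the mark per cell cannot be told apart. Over the 10 libraries 11 of the 67 genes were marked in none (16.4%), against 47.0% of all protein-coding genes. The other 56 were marked in at least 1 library, 8 of them in 9 libraries and 0 in all 10, whereas 16.5% of all genes were marked in all 10. Per population 16 were marked in every Oct4+ nEnd library, 21 in every DP nEnd library and 2 in every Pdgfra+ nEnd library. These 2 were the only histone genes marked in Pdgfra+ nEnd replicate 2, and the 16 had to be marked in 4 libraries, the shortest list among them. The share of all genes was not counted by population, so these counts are no comparison with other genes. A further 9 were marked only in Oct4+ nEnd replicate 1 and Pdgfra+ nEnd replicate 1, the libraries with the most marked histone genes.

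The deposited consensus lists, the authors' merged peaks of each population and thus without an error, covered 42 histone promoters for Oct4+ nEnd, 36 for DP nEnd and 19 for Pdgfra+ nEnd. These were 62.7%, 53.7% and 28.4% of the histone genes, against 39.4%, 42.0% and 40.4% of all genes. The 19 were in all 3 lists, 17 more were in those of Oct4+ nEnd and DP nEnd, and 6 were in that of Oct4+ nEnd alone. As shares of the 42 these were 45.2%, 40.5% and 14.3%, against 76.5%, 3.86% and 5.6% of the 10015 protein-coding genes in any list. These 6 were Hist1h2ab, Hist1h2ah, Hist1h2bb, Hist1h2bk, Hist1h3b and Hist1h3c. Each of the 6 also had a peak in Pdgfra+ nEnd replicate 1. Hist1h2ab, Hist1h2ah, Hist1h2bk and Hist1h3b had one in only 2 of the 4 Oct4+ nEnd libraries. The list of Pdgfra+ nEnd comes from a population of 3 libraries, of which replicate 2 marked only 2 histone genes. Hist1h2bm, Hist1h4j and Hist1h4k, in none of the lists, had a peak in Pdgfra+ nEnd replicate 1 alone. No histone gene was in the list of DP nEnd or of Pdgfra+ nEnd without being in that of Oct4+ nEnd, against 9.72% of all listed genes in both of those without Oct4+ nEnd, 1.98% in DP nEnd alone and 1.95% in Pdgfra+ nEnd alone.

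Neighbouring histone genes shared peaks. In Oct4+ nEnd replicates 1 to 4 a peak over a histone promoter covered 2.26, 2.22, 2.43 and 2.43 histone genes on average. It covered 2.19, 2.40 and 2.10 in DP nEnd and 2, 1 and 2.11 in Pdgfra+ nEnd. Peaks over any promoter covered 1.13 to 1.21 genes in the same libraries, so histone peaks held more genes in 9 of 10, all but Pdgfra+ nEnd replicate 2. Oct4+ nEnd lay above Pdgfra+ nEnd without overlap, by 0.631 genes per peak, and overlapped DP nEnd. Without Pdgfra+ nEnd replicate 2, which had 2 such peaks of 1 gene each, the difference was 0.280. In 7 libraries 5 genes, Hist1h2ae, Hist1h2bg, Hist1h2bf, Hist1h2ad and Hist1h3d, lay under 1 peak, which measured 8290 bp in Oct4+ nEnd replicate 1 and 7828 bp in DP nEnd replicate 3. The widest histone peak, 16715 bp in DP nEnd replicate 2, joined Hist2h3c2, Hist2h2aa2, Hist2h2aa1 and Hist2h3c1.

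Of the 67 genes 26 form 13 head-to-head pairs with starts 176 to 660 bp apart, 12 of them of H2A with H2B and 1, Hist1h2bh and Hist1h3f, of H2B with H3. In every library both genes of a pair were marked or neither was, which the overlap of their windows makes likely from the outset. Hist2h2ac and Hist2h2be were marked together in 9 libraries, and 3 pairs were marked in none. The strongest part of a histone peak lay close to a start. Of 141 peaks over histone promoters in the 10 libraries, 135 (95.7%) had the middle of their region of highest coverage within 1000 bp of the nearest histone start, and in 100 (70.9%) it lay downstream.

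Peaks over histone promoters were wide and low. Their median width was 4009 to 5790 bp outside Pdgfra+ nEnd replicate 2, where it was 2799 bp, and the median over all peaks was 2205 to 4223 bp. To compare libraries, each peak was ranked in its own library as a percentile, so that 100 is the strongest. By total signal of the peak, the median of the marked histone genes over Oct4+ nEnd replicates 1 to 4 was at the 57.9, 45.6, 33.4 and 40.2 percentile. It was at the 26.5, 28.2 and 18.9 percentile in DP nEnd and at the 31.7, 14.2 and 10.7 percentile in Pdgfra+ nEnd. Every Oct4+ nEnd library stood above every DP nEnd and Pdgfra+ nEnd library, by 19.7 and 25.4 points on average, and DP nEnd overlapped Pdgfra+ nEnd. All marked genes had a median at the 52.7 to 57.3 percentile, which the histone genes reached only in Oct4+ nEnd replicate 1.

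The order rested on the measure of strength. By highest coverage the median of the marked histone genes was at the 18.6, 5.33, 4.43 and 3.07 percentile in Oct4+ nEnd, the 1.89, 4.89 and 3.02 percentile in DP nEnd and the 8.08, 17.1 and 0.423 percentile in Pdgfra+ nEnd. The lead of Oct4+ nEnd was then 4.58 points over DP nEnd and -0.688 points over Pdgfra+ nEnd, and all 3 populations overlapped. By total signal per bp the leads were 6.77 and 5.68 points, and with equal numbers of peaks 7.61 and 7.08 points. In those shortened lists Oct4+ nEnd, at 26.4 to 47.4, overlapped DP nEnd, at 9.23 to 48.9, and Pdgfra+ nEnd had marked histone genes in replicate 1 alone, so the 7.08 is a difference from 1 library. All marked genes lay at the 54.6 to 58.5 percentile by highest coverage, above the histone genes in each of the 10 libraries. From 32.7% to 88.2% of the marked histone genes in a library had a peak under the 10 percentile by that measure.

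**Figure D2:**
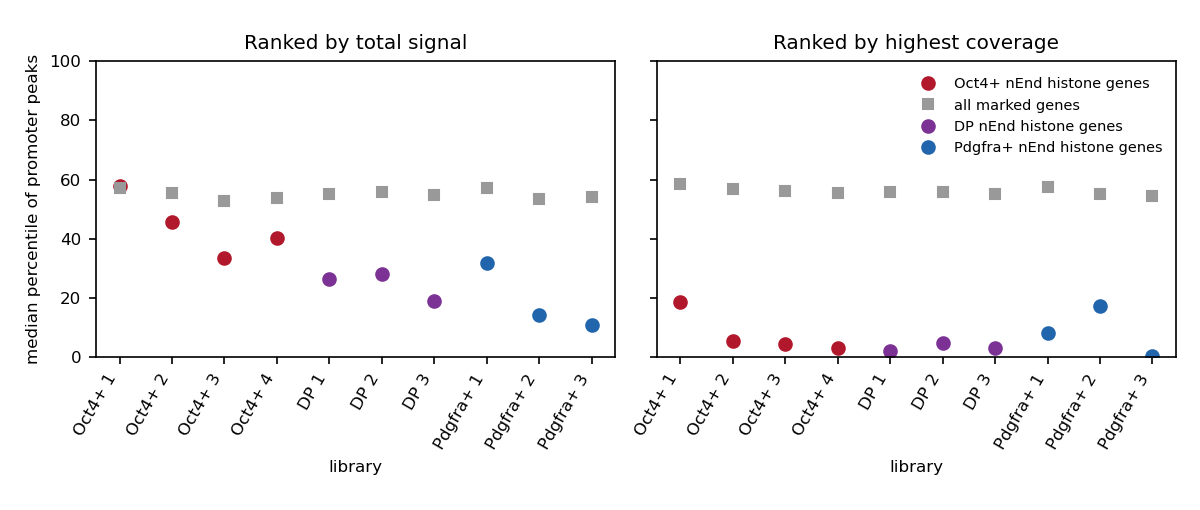
Median percentile of promoter peaks (y axis) in each library (x axis) for marked histone genes (coloured circles) and for all marked genes (grey squares), ranked by total signal (left) and by highest coverage (right). On the left Oct4+ nEnd lies at 33.4 to 57.9 and DP nEnd at 18.9 to 28.2, and on the right the histone genes lie at 18.6 or lower in every library.

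The 3 comparisons between populations ask which histone promoters differ, read against the same rule over all genes. A gene was called when the percentiles of its promoter peak, with 0 for no peak, did not overlap between 2 populations. In Oct4+ nEnd over DP nEnd 8 of 53 histone genes were called (15.1%), against 4.62% of 10603 protein-coding genes. In DP nEnd over Oct4+ nEnd 0 of 53 were called, against 25.6%. In Oct4+ nEnd over Pdgfra+ nEnd 2 of 56 were called, against 4.62% of 11614, and in the reverse direction 0 of 56, against 18.8%. Between DP nEnd and Pdgfra+ nEnd 0 of 54 were called in either direction, against 2.78% higher in DP nEnd and 4.81% higher in Pdgfra+ nEnd.

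The 8 genes lie under 3 peaks of the upper Hist1 block and 1 of them is a gene for H1, so they are not 8 separate observations. Hist1h2bf, Hist1h2ad and Hist1h3d, for H2B, H2A and H3, share the first. Over Oct4+ nEnd replicates 1 to 4 its percentile was 74.6, 56.4, 33.4 and 62.6. It was 26.5, 21.6 and 5.31 in DP nEnd and 40.0 in Pdgfra+ nEnd replicate 1, with no peak in the other two. Oct4+ nEnd stood above DP nEnd throughout, with a mean difference of 39.0 points (exact permutation, p = 0.0571, adjusted over all genes 0.264).

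Hist1h4a, Hist1h3a and Hist1h1a, for H4, H3 and the linker H1, share the second. Its percentile was 66.0, 45.4, 37.6 and 40.2 in Oct4+ nEnd. In DP nEnd it was 29.2 and 28.2 with no peak in replicate 3, and in Pdgfra+ nEnd it was 40.4 and 9.76 in replicates 1 and 3 with no peak in replicate 2. The mean was 28.2 points higher in Oct4+ nEnd than in DP nEnd, with no overlap (exact permutation, p = 0.0286, adjusted over all genes 0.230). These 3 genes were no longer called when peaks were ranked by highest coverage or by signal per bp, whereas the other 5 of the 8 were. Pdgfra+ nEnd replicate 1 lay above 2 of the 4 Oct4+ nEnd libraries.

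Hist1h3c and Hist1h2bb, for H3 and H2B, share the third, and they were the 2 genes called in both comparisons with Oct4+ nEnd. Their percentile was 87.5, 19.8, 25.5 and 73.1 in Oct4+ nEnd, 0 throughout DP nEnd, and 9.72 in Pdgfra+ nEnd replicate 1 with no peak in the other two. In Oct4+ nEnd replicates 1 and 4 the peak ran on over Hist1h1c, a gene for H1, and was 10799 and 11232 bp wide. In DP nEnd Hist1h1c had a peak of its own, of 4524, 5353 and 2946 bp, that ended short of these genes. The mean difference from DP nEnd was 51.5 points (exact permutation, p = 0.0857, adjusted 0.297). By signal per bp they were no longer called over Pdgfra+ nEnd.

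By the stricter rule, a peak throughout one population and never in the other, Hist1h3c and Hist1h2bb were the 2 histone genes called in Oct4+ nEnd over DP nEnd, against 0.415% of all genes (Fisher's exact test, two-sided, p = 0.0286, adjusted over all genes 0.649). In the reverse direction 0 were called, against 3.99%. No histone gene was called between Oct4+ nEnd and Pdgfra+ nEnd, against 0.672% and 2.69% in the direction of each, or between DP nEnd and Pdgfra+ nEnd, against 0.214% and 0.00891%. With 4 libraries against 3 the exact permutation test cannot go below 0.0286, and with 3 against 3 not below 0.10. After adjustment over all genes its smallest value was 0.230, 0.239 and 1 in the 3 pairs, so no gene passed 0.05. At an unadjusted p under 0.05 in Oct4+ nEnd against DP nEnd, the exact permutation test gave 3 of 53 histone genes. This was 5.66%, against 12.4% of all genes. Fisher's exact test gave 2 (3.77%, against 4.40%). These shares of all genes count both directions, whereas each of these histone genes was higher in Oct4+ nEnd. In that direction alone the stricter rule called 3.77% of the histone genes, 2 that share 1 peak, against 0.415% of all genes. The permutation shares were not split by direction. In Oct4+ nEnd against Pdgfra+ nEnd both tests gave 0 histone genes, against 11.9% and 3.36% of all genes. In DP nEnd against Pdgfra+ nEnd no gene could pass.

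Single libraries set these counts. Without Oct4+ nEnd replicate 3, the shortest list, 19 of 52 histone genes were called higher than in DP nEnd, against 9.33% of all genes, and 14 of 55 higher than in Pdgfra+ nEnd, against 8.28%. The added genes included Hist1h4h, Hist1h2af and Hist1h3g and the Hist2 genes Hist2h2ab, Hist2h2ac and Hist2h2be. Without Pdgfra+ nEnd replicate 1, 13 of 53 were called higher in Oct4+ nEnd than in Pdgfra+ nEnd, against 8.74%, and 21 of 36 higher in DP nEnd than in Pdgfra+ nEnd, against 27.1%. In none of these was a histone gene called lower in Oct4+ nEnd. With equal numbers of peaks none of the 8 genes was called. By percentile 3 others of 28, Hist2h2ab, Hist2h2ac and Hist2h2be, were called higher in Oct4+ nEnd than in DP nEnd, against 17.3% of all genes. By that rule the histone genes were no longer above the share of all genes. By presence the same 3, which share 1 peak, were called, against 4.94%.

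**Figure D3:**
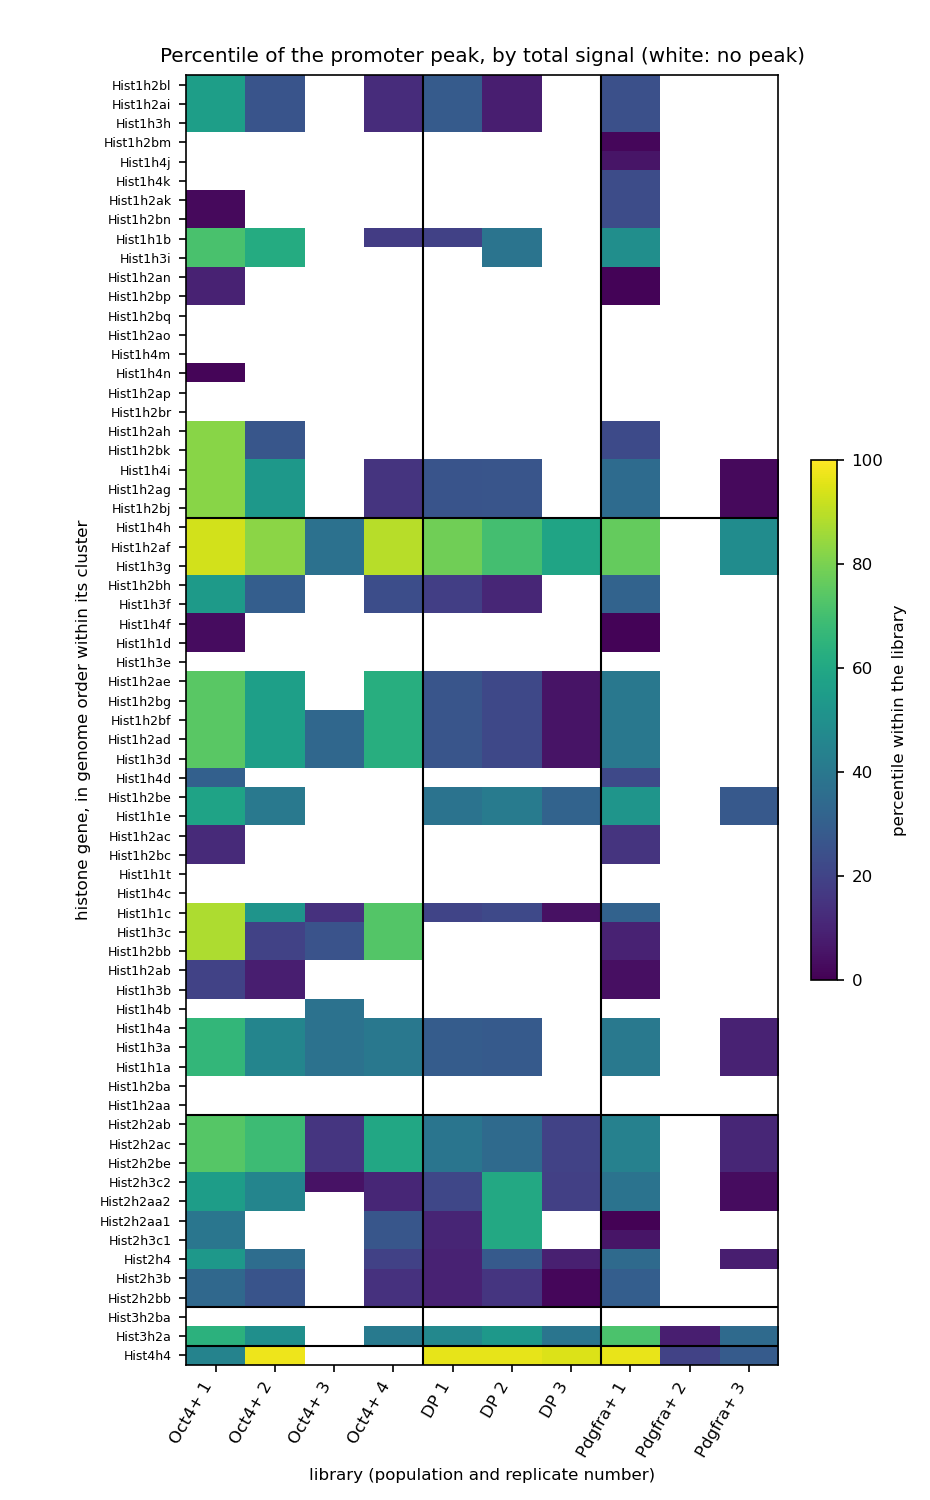
Percentile by total signal of the promoter peak of each of the 67 histone genes (rows, in genome order within the 5 groups, black lines between groups) in each of the 10 libraries (columns), with white for no peak. Rows of equal colour are genes under 1 peak, Oct4+ nEnd replicate 1 and Pdgfra+ nEnd replicate 1 fill the most rows, and Pdgfra+ nEnd replicate 2 holds peaks only at Hist3h2a and Hist4h4.

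The upper Hist1 block held the genes with the highest mean percentile over the 10 libraries. Of its 31 genes 25, 20, 13 and 16 were marked in Oct4+ nEnd, 16, 16 and 11 in DP nEnd, and 25, 0 and 8 in Pdgfra+ nEnd. Peaks covered 5.86% to 16.4% of its 403802 bp in Oct4+ nEnd, 5.24% to 9.71% in DP nEnd and 0% to 14.3% in Pdgfra+ nEnd. At its start Hist1h4h, Hist1h2af and Hist1h3g, for H4, H2A and H3, lay under 1 peak in 9 libraries and had that highest mean. That percentile was 93.02, 82.6, 37.1 and 89.4 in Oct4+ nEnd. It was 78.1, 70.2 and 58.3 in DP nEnd, and 76.3 and 48.8 in Pdgfra+ nEnd replicates 1 and 3. Oct4+ nEnd overlapped the other two populations through its replicate 3 alone, and DP nEnd and Pdgfra+ nEnd overlapped each other. The mean of Oct4+ nEnd was 6.65 points above that of DP nEnd (exact permutation, p = 0.743).

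Hist1h1e, a gene for the linker H1, was marked in 7 libraries, including all 3 of DP nEnd, at the 37.9, 41.7 and 32.0 percentile. Hist1h2be, for H2B, took the same values, since its annotated starts lie beside Hist1h1e. Hist1h4b, for H4, was marked in Oct4+ nEnd replicate 3 alone, at the 37.6 percentile. Marked in no library were Hist1h3e, Hist1h4c, Hist1h1t, a linker histone of the testis, and the pair Hist1h2ba and Hist1h2aa at the far end of the block.

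**Figure D4:**
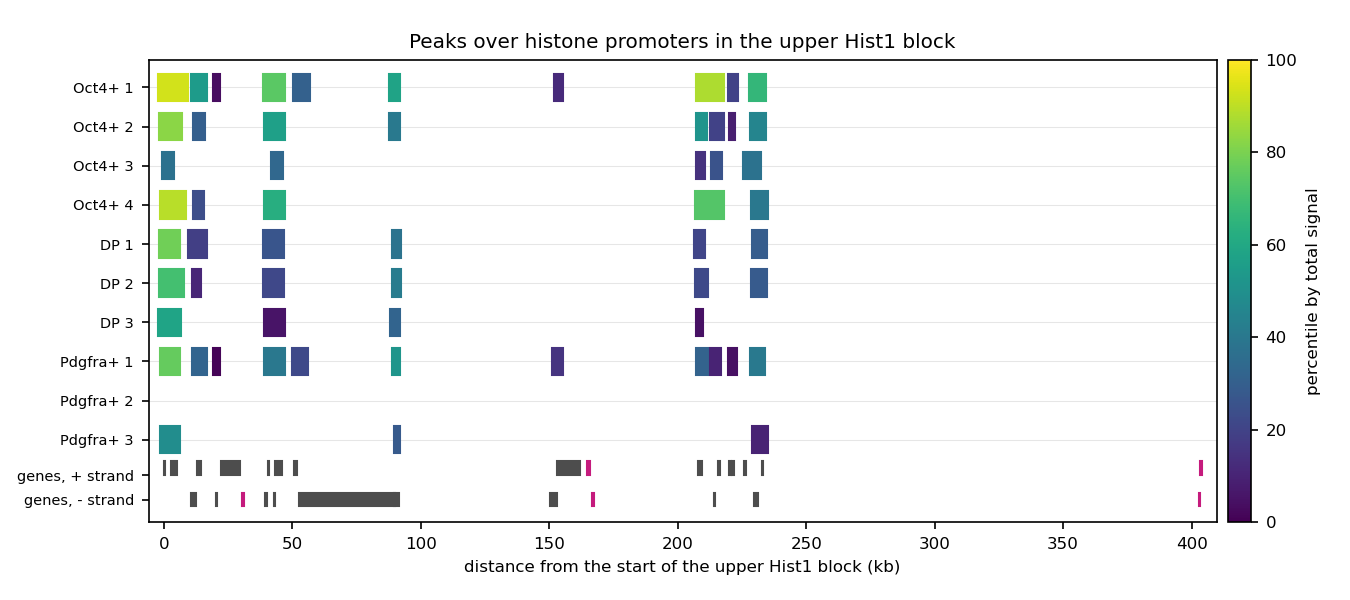
Peaks over histone promoters of the upper Hist1 block in each library (rows), coloured by percentile of total signal, against distance from the start of the block in kb. The 2 lowest rows show the genes on each strand, in pink where no library was marked, and Oct4+ nEnd replicate 1 and Pdgfra+ nEnd replicate 1 hold the most peaks, with none in Pdgfra+ nEnd replicate 2.

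The lower Hist1 block held no marked histone gene in Oct4+ nEnd replicate 3, DP nEnd replicate 3 and Pdgfra+ nEnd replicate 2. Of its 23 genes 15, 10, 0 and 7 were marked in Oct4+ nEnd, 7, 8 and 0 in DP nEnd, and 17, 0 and 3 in Pdgfra+ nEnd. Its highest mean percentile belonged to Hist1h1b, for H1, at 71.4, 61.5 and 17.9 in Oct4+ nEnd replicates 1, 2 and 4. The same gene was at 19.3 and 38.4 in DP nEnd replicates 1 and 2 and at 49.3 in Pdgfra+ nEnd replicate 1, with no peak in the other libraries. Hist1h2bq, Hist1h2ao, Hist1h4m, Hist1h2ap and Hist1h2br, in the middle of the block, were marked in none, and Hist1h4n among them only in Oct4+ nEnd replicate 1, at the 1.20 percentile.

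How much of a promoter is repeated was measured as the share of its 31-base words that occur again in the genome, since reads wholly inside repeated sequence cannot be placed at 1 site. It was 100% for Hist1h2bq, Hist1h2ao, Hist1h2ap and Hist1h2br, 97.1% for Hist1h4m and 97.9% for Hist1h4n. Each of the other never-marked genes was at 16.2% or lower, with 0% for Hist1h1t and Hist3h2ba, 0.467% for Hist1h4c, 3.92% for Hist1h2ba and 8.68% for Hist1h3e. Repeats and missing peaks did not always go together. Hist2h3c2, at 93.9%, was marked in 9 libraries and Hist2h3c1, at 94.3%, in 5. The median was 16.2% over the 11 genes marked in no library, 28.01% over 14 marked in 1 or 2, 19.9% over 24 marked in 3 to 7, and 9.52% over 18 marked in 8 or 9. The part of repeats in the missing peaks was not tested.

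**Figure D5:**
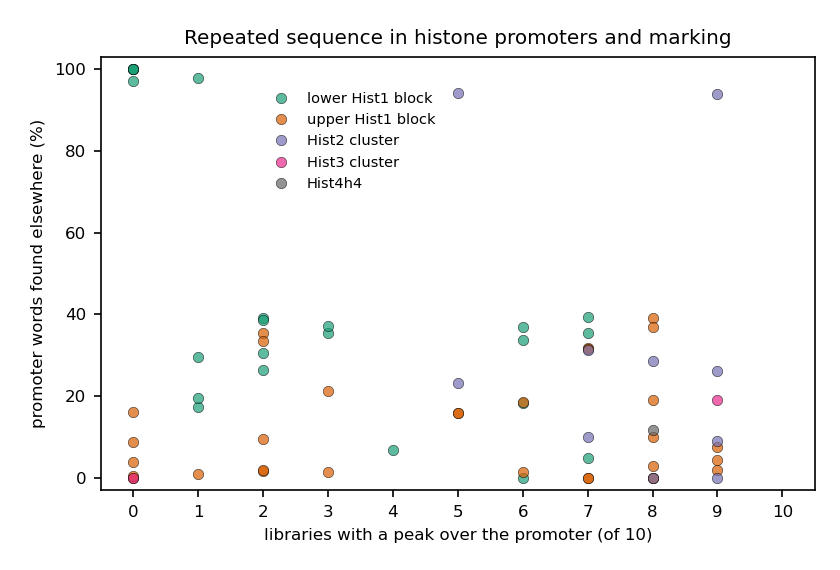
Share of the 31-base words of each histone promoter that occur elsewhere in the genome (y axis, percent) against the number of libraries with a peak there (x axis, of 10), coloured by cluster. Of 8 promoters above 50%, 5 were marked in no library, 1 in 1 library and the 2 of the Hist2 cluster in 5 and 9.

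In the Hist2 cluster each gene was marked in at least 5 libraries. Of its 10 genes 10, 8, 4 and 10 were marked in Oct4+ nEnd, 10, 10 and 8 in DP nEnd, and 10, 0 and 6 in Pdgfra+ nEnd. Peaks covered 8.91% to 44.2% of its 50268 bp in Oct4+ nEnd, 26.8% to 54.4% in DP nEnd and 0% to 41.4% in Pdgfra+ nEnd, more than of either Hist1 block in every library in which it was marked. The peak over Hist2h2ab, Hist2h2ac and Hist2h2be, the last 2 with the sequence between their starts printed above, was at the 73.8, 68.4, 15.3 and 59.9 percentile in Oct4+ nEnd. It was at the 38.7, 34.5 and 19.7 percentile in DP nEnd and at 44.0 and 10.7 in Pdgfra+ nEnd replicates 1 and 3. Oct4+ nEnd overlapped both through replicate 3, and the mean was 23.4 points above DP nEnd (exact permutation, p = 0.20). This peak also covers the promoter of Bola1, a gene outside the list, so its signal cannot be given to the histone genes alone. The lowest mean percentile of the cluster was that of Hist2h3b and Hist2h2bb, for H3 and H2B, at 33.8 at most in any library.

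Of the Hist3 genes, Hist3h2a, for H2A, was marked in 9 libraries and Hist3h2ba, for H2B, in none. The peak of Hist3h2a was at the 64.4, 49.8 and 40.8 percentile in Oct4+ nEnd replicates 1, 2 and 4. It was at the 46.5, 53.3 and 38.8 percentile in DP nEnd and the 71.8, 8.42 and 34.4 percentile in Pdgfra+ nEnd. The populations overlapped, and each of the 9 peaks also covers the start of Trim17, a gene for a ubiquitin ligase that begins at the same base.

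Hist4h4 stood apart from the other histone genes. It was at the 44.6 and 97.6 percentile in Oct4+ nEnd replicates 1 and 2 and had no peak in replicates 3 and 4. It was at the 96.2, 96.4 and 94.9 percentile in DP nEnd, and at 96.8, 19.9 and 28.7 in Pdgfra+ nEnd. The high values belong to peaks of 8352 to 10474 bp that reach over the promoter of the neighbouring variant gene H2afj, and the low ones to peaks of 1945 to 2650 bp over Hist4h4 alone. H2afj itself was at the 65.7 to 97.6 percentile in all 10 libraries. With peaks shared with genes outside the list left out, an alternative added after the values were seen, the same 8 genes, then of 49, were called higher in Oct4+ nEnd than in DP nEnd, against 4.62% of all genes.

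By class, the share of genes marked was 58.3% ± 21.5 for H1, 55.6% ± 25.3 for H2A, 47.2% ± 23.4 for H2B, 72.9% ± 21.9 for H3 and 38.5% ± 16.6 for H4 in Oct4+ nEnd (SD, n = 4). In DP nEnd it was 55.6% ± 19.2, 50% ± 9.62, 38.9% ± 9.62, 58.3% ± 22.0 and 33.3% ± 8.88 in the same order (SD, n = 3). In Pdgfra+ nEnd it ran from 31.5% ± 41.0 for H2B to 40.7% ± 39.4 for H2A (SD, n = 3). The H3 genes had the highest mean share in Oct4+ nEnd and DP nEnd, but each class overlapped between populations and the classes share peaks.

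The genes for replacement and variant histones, which are transcribed outside S phase too, were marked more steadily. Of 12, 7 to 11 were marked per Oct4+ nEnd library, 11 in each of DP nEnd and 8 to 11 in Pdgfra+ nEnd. Higher in Oct4+ nEnd than in DP nEnd, without overlap, were 2 of 11 (H2afx and H1fx), against 4.62% of all genes, and 1 was lower (H2afy, for macroH2A), against 25.6%. H1fx, for a linker histone outside the clusters, was at the 92.3, 91.8, 71.0 and 76.1 percentile in Oct4+ nEnd. It was at the 17.7, 30.0 and 34.6 percentile in DP nEnd and at 10.8 in Pdgfra+ nEnd replicate 1, with no peak in the other two. All 3 populations were apart, in the order Oct4+ nEnd, DP nEnd, Pdgfra+ nEnd. H2afx, the variant phosphorylated at DNA breaks, was at 85.1 to 92.7 in Oct4+ nEnd and 80.6 to 81.9 in DP nEnd. H3f3a, for the replacement histone H3.3, was at 86.7 to 93.6 in all 10 libraries. It was higher in DP nEnd, at 91.1 to 93.6, than in Pdgfra+ nEnd, at 86.8 to 90.6. Between these populations 2 of 11 (H3f3a and H1fx) were higher in DP nEnd without overlap, against 2.78% of all genes, and 0 were lower, against 4.81%. H1foo, a linker histone of the oocyte, was marked in none.

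Of 16 genes for factors that transcribe histone genes or process the 3' ends of their mRNAs, 9 to 15 were marked per Oct4+ nEnd library, 15 in each of DP nEnd and 14 to 16 in Pdgfra+ nEnd. None of 15 was higher in Oct4+ nEnd than in DP nEnd without overlap, and 3 were lower, a share of 15 below the 25.6% of all genes. These were Slbp, for the protein that binds the stem loop, Cpsf3, for the nuclease that cuts the mRNA, and Sympk, for their scaffold symplekin. Slbp was at the 74.3, 75.6, 37.7 and 73.1 percentile in Oct4+ nEnd and at 82.0, 85.4 and 79.2 in DP nEnd. Npat was marked in all 10 libraries, at the 44.5 to 90.3 percentile, and overlapped between populations.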

How the data were processed

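H3K4me3 CUT&Tag of 10 libraries was analysed. Per the labels and the paper's methods, the authors made coverage with BEDtools, called peaks against an IgG control with SEACR in its stringent mode, library by library, and took 1 consensus list per population with DiffBind. The submitters' processing notes name bcl2fastq 2.19.1, Bowtie2, SAMtools 1.12, deepTools and bedtools 2.26.0, on mm10 (GRCm38). Aligner settings and treatment of repeated reads are not given in the sources used here. The deposited lists give each peak's total signal and highest coverage, with no known scaling between libraries, so presence and ranks within a library were compared. No list gives read depth, and precision is limited by the number of libraries. No comparison columns of the authors were present.

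Promoters ran from 1000 bp before to 100 bp after each of 93513 annotated starts (GENCODE M21). Peaks overlapping by 1 bp or more marked a gene, and the highest percentile was kept where several did. Groups come from the sample titles. Exact two-sided permutation tests of percentiles and Fisher's exact tests were run over all protein-coding genes marked in either population, with Benjamini-Hochberg adjustment, and code was tested on simulated data. Alternatives were windows widened to 2500 bp in both directions, 50% of the window covered, equal numbers of peaks, percentiles by highest coverage or signal per bp, a replicate block, leaving out each library, and dropping peaks shared with other genes. No library pair of the 45 had identical lists. The genes named were those marked in no library, those called, those with the highest and lowest mean percentile in each cluster, members of clusters of 3 or fewer genes and the testis genes. Others, such as Hist1h1e, Hist1h2be, Hist1h1c and Hist1h4b, were named after their values were seen. Members, lists and tests were chosen with earlier results of these data known. Python 3.11.15, numpy 2.4.6, scipy 1.17.1, statsmodels 0.14.6 and matplotlib 3.10.9 were used. Libraries were not treated as paired by replicate number, which the labels do not settle. Correlations of deviations from population means between libraries of the same number ran from -0.203 to 0.209, with a median of 0.0553. Those between libraries of different number ran from -0.382 to 0.347, with a median of -0.0310. With so few pairs these values cannot decide whether the numbers pair the libraries.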

Additional observations from a re-analysis of the deposited data

Results flagged for a closer look

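In 11 of 57 gene and population values tested, 1 of the 4 Oct4+ nEnd libraries stood apart from the other three by Dixon's test, and each time it was the only one with a peak over the promoter. The libraries without a peak share the same value, so a gene with a peak in only 1 of the 4 is flagged whatever its percentile. The usual chance rate of about 1 in 20 groups does not hold for such values. The count of flags therefore cannot show an excess of outliers, and only lists genes with a peak in a single Oct4+ nEnd library. Genes under 1 peak are flagged together. In replicate 1 these were Hist1h2ak and Hist1h2bn, at the 2.42 percentile, Hist1h2an and Hist1h2bp, at 9.45, Hist1h4n, at 1.20, and Hist1h4f and Hist1h1d, at 3.24. Further genes with a peak in replicate 1 alone were Hist1h4d, at 30.7, and Hist1h2ac and Hist1h2bc, at 11.9. In replicate 3 it was Hist1h4b, at 37.6. All of these genes but Hist1h4n and Hist1h4b also had a peak in Pdgfra+ nEnd replicate 1 and in no further library.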

How the results depend on the processing

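With a wider promoter window or a peak over 50% of the window, each of 21 results kept its direction, differences moved by less than the SD between libraries and counts by no more than 1.5 times. The wider window called 10 genes in Oct4+ nEnd over DP nEnd in place of 8, and its lead over Pdgfra+ nEnd in share marked was 21.1 points. With equal numbers of peaks the lead of Oct4+ nEnd in median percentile was 7.61 over DP nEnd and 7.08 over Pdgfra+ nEnd, and that of DP nEnd over Pdgfra+ nEnd was -0.527, where Pdgfra+ nEnd stands for replicate 1 alone because replicates 2 and 3 then had no marked histone gene. Genes per peak were 0.701 higher in Oct4+ nEnd than in DP nEnd. Over DP nEnd 3 of 28 histone genes, none of the 8, were then called by percentile, against 17.3% of all genes. The excess over all genes by that rule was lost. By presence the same 3 of 28, which share 1 peak, were called, against 4.94%. Over Pdgfra+ nEnd 6 of 28 were called, against 18.3%, and 3 by presence, against 6.22%. By highest coverage the 3 leads in median percentile were 4.58, -0.688 and -5.26, and by signal per bp 6.77, 5.68 and -1.08, with 5 genes called in Oct4+ nEnd over DP nEnd, against 3.6% of all genes, and 0 over Pdgfra+ nEnd, against 2.97%. Without peaks shared with other genes, genes per peak differed by -0.0292 between Oct4+ nEnd and DP nEnd. The cause of these shifts was not tested.

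Leaving out 1 library at a time, the difference in share marked ran from -0.498 to 16.9 points for Oct4+ nEnd minus DP nEnd, from -1.12 to 37.7 for Oct4+ nEnd minus Pdgfra+ nEnd and from -8.71 to 30.1 for DP nEnd minus Pdgfra+ nEnd. The negative values came without Oct4+ nEnd replicate 1 in the first and without Pdgfra+ nEnd replicate 2 in the others. The difference in cluster bp covered ran from -2.09 to 3.33, from -0.402 to 8.59 and from -1.16 to 7.83 points, negative without the same libraries and, at -1.57 in the first, without DP nEnd replicate 3. Genes per peak differed by 0.0413 to 0.191, by 0.280 to 0.835 and by 0.174 to 0.729 in the same order, lowest in the last 2 pairs without Pdgfra+ nEnd replicate 2. The leads in median percentile were 15.2 to 23.3, 20.9 to 31.8 and 1.65 to 12.1. Genes called by percentile ran from 8 to 19 for Oct4+ nEnd over DP nEnd, from 0 to 1 for the reverse, with the 1 of 53 without Oct4+ nEnd replicate 2, against 30.3% of all genes, from 2 to 14 for Oct4+ nEnd over Pdgfra+ nEnd and from 0 to 21 for DP nEnd over Pdgfra+ nEnd, where leaving out DP nEnd replicate 3 gave 2 of 54, against 5.61%, and Pdgfra+ nEnd replicate 1 gave 21 of 36, against 27.1%. The 19 of 52 and 14 of 55 came without Oct4+ nEnd replicate 3, against 9.33% and 8.28%. Genes called by presence ran from 0 to 6 for Oct4+ nEnd over Pdgfra+ nEnd and from 0 to 8 for DP nEnd over Pdgfra+ nEnd, both highest without Pdgfra+ nEnd replicate 1, against 1.51% and 2.51% of all genes. Of these 160 results 145 stayed within those limits. The cause was not tested.

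With the replicate block, the mean difference between libraries of the same number, the lead in median percentile was 21.1 for Oct4+ nEnd over DP nEnd and 26.8 over Pdgfra+ nEnd, and the 18 results stayed within the same limits. Whether the numbers pair the libraries is not known. The depth is unknown, so a missing peak may be a weak one.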

Other observations

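Of 3 histone pseudogenes outside the 67 genes, Hist3h2bb-ps on chromosome 11 (58954048 to 58954512, minus strand) lay under a peak in 9 libraries, all but Oct4+ nEnd replicate 3. It lies just before the shared start of Hist3h2a and Trim17. Hist1h2aj was marked in 1 library, of Pdgfra+ nEnd, and Hist1h2al, on chromosome 13 outside both Hist1 blocks, in none.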
